A study of Mus musculus with 8 samples.

Results

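The genes described here are 8 genes that osteoblasts and osteocytes are known for, chosen by name: Bglap, Bglap2, Dmp1, Alpl, Phex, Mepe, Sost and Postn. Read counts of 6 of them were taken from a table of 16536 genes, and all 6 passed the filter on low counts that left 15421 genes for testing. Mepe and Sost were not analysed here. The question was whether these bone genes differed between the libraries of 4 mice given SAG and 4 mice given the vehicle DMSO. SAG activates Smoothened, the membrane protein that switches on Hedgehog signaling.

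All 8 mice were of the Pthrp-mCherry line, in which mCherry reports Pthlh, the gene of the chondrocyte signal PTHrP. Each mouse received daily intraperitoneal injections from P30 to P36 and was sacrificed at P38. The days are those of the labels, and the study's methods place the injections a day later. From the femoral growth plates of each mouse, cells positive for both mCherry and CD73 (the product of Nt5e) were sorted and made into 1 library. The gate holds every cell with both signals, the labels name the tissue as metaphyseal growth plate, and the sex of each mouse is not given in the labels. Both groups carried the same reporter, and they differed by label only in SAG against DMSO.

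Osteoblasts lay down a collagen matrix, the osteoid, and then mineralize it. Alkaline phosphatase, encoded by Alpl, breaks down pyrophosphate, an inhibitor of mineral growth, and is active on matrix vesicles of both osteoblasts and hypertrophic chondrocytes. Osteocalcin, encoded in the mouse by the neighboring copies Bglap and Bglap2, is a small vitamin K-dependent protein that mature osteoblasts secrete. Osteocytes, the cells buried in bone, make the acidic matrix protein DMP1 and the membrane peptidase PHEX, both known for their part in phosphate balance. Periostin, encoded by Postn, is a matrix protein of the periosteum and of other collagen-rich connective tissue.

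The osteocalcin copies lie next to each other on the minus strand of chromosome 3 of the GRCm38 build, and their messages are nearly the same, so their coding sequences are shown side by side. Bglap spans chr3:88383501-88384464 and Bglap2 spans chr3:88377736-88378699. Over 285 coding bases without the stop codon, the 2 copies differed at 4 positions and were 98.6% identical. Capitals mark the differing bases in the GENCODE M21 transcripts.
Bglap: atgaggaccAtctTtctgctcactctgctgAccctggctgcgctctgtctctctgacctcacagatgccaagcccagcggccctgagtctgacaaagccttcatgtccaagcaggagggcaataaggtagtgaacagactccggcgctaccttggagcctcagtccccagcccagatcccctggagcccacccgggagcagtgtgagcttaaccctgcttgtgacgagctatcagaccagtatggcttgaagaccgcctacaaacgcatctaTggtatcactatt
Bglap2: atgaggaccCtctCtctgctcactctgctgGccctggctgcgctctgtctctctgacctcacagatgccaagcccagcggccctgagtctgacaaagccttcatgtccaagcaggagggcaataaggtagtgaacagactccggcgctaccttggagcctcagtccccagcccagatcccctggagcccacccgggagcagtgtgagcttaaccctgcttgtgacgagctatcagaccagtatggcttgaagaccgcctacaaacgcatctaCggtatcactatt
A short read from most of this stretch could come from either gene. Over the exons of all annotated transcripts, 330 of the 588 31-base words of Bglap (56.1%) also occurred in Bglap2. Of the 441 words of Bglap2, 420 (95.2%) occurred in Bglap or in the third copy, Bglap3, at chr3:88368616-88372743. Counts of Bglap and Bglap2 are therefore uncertain as separate genes, and each is given below beside their sum.

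Of the other genes, Alpl lies at chr4:137741733-137796384 on the minus strand, Dmp1 at chr5:104202613-104214102 on the plus strand, Phex at chrX:157162075-157415312 on the minus strand and Postn at chr3:54361109-54391037 on the plus strand. All are protein-coding genes of GENCODE M21, and the spans hold exons, introns and untranslated ends.

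RUNX2 is the transcription factor that osteoblasts need, and its family binds a short core. The letters TGTGGT or TGCGGT were searched on both strands of the RefSeq promoter windows (GRCm38.p6), which hold 300 bases around each start. Of all 32851 windows, 22.4% held at least 1 match. Bglap had 1 match that began 132 bases before its start, and Dmp1 had 1 match that began 164 bases before the second of its starts. The windows of Alpl, Phex and Postn and the first window of Dmp1 held no match. Bglap2 had no window among those searched. The 250 bases before those 2 starts are shown with the match in capitals, for Bglap from chr3:88384467-88384716 on the minus strand and for Dmp1 from chr5:104202367-104202616 on the plus strand.
Bglap upstream: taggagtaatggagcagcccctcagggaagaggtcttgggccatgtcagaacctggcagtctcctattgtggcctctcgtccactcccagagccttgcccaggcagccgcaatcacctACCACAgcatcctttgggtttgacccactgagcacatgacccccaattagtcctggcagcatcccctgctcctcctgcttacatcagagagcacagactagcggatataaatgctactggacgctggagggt
Dmp1 upstream: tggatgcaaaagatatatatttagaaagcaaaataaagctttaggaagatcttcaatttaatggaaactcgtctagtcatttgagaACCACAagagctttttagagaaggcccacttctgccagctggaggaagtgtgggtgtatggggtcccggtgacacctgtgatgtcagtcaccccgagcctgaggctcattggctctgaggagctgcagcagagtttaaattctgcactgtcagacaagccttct
In both, the capitals read ACCACA, the other strand of TGTGGT. A match describes the letters only, and binding was not measured.

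The libraries held between 24971992 and 46593090 counts, and 3 counts corresponded to between 0.0670 and 0.114 CPM (a gene's count divided by the TMM-adjusted total of its library, on 1 scale for all libraries). DMSO replicate 4 was the shallowest library and had the fewest genes detected, 14416. Cartilage genes were present in every library. The 15 chondrocyte markers summed to between 47606 and 110876 CPM in DMSO and between 19070 and 53198 CPM in SAG. In SAG replicate 2, with the lowest of these sums, 12 neutrophil genes summed to 43844 CPM. Pthlh, which the reporter marks, stood at 18.5 CPM in DMSO and 23.8 CPM in SAG (edgeR log2 fold change 0.37, SE 0.28, adjusted p = 0.606), and Nt5e at 228 and 159 CPM (log2 fold change -0.51, SE 0.19, adjusted p = 0.186). Other cells' RNA was present too, and their marker lists are given below whether or not they moved with the bone genes. Across all genes, edgeR called 404 higher and 41 lower with SAG at an adjusted p under 0.05, and the median log2 fold change was -0.08.

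None of the 6 bone genes passed the edgeR quasi-likelihood test, against 0.266% of all tested genes called lower with SAG. All 6 fitted log2 fold changes were below 0, as were 54.8% of those of all tested genes. Scaling to chondrocyte markers raised the median of all genes to 1.05 on the log2 scale, and with it Dmp1, Phex and Postn to above 0; relative to that median they stood at -0.40, -0.33 and -0.53. 2 of the 6, Alpl and Bglap, had an unadjusted p under 0.05. DESeq2, the tool the labels name, called 2 of the 6, Alpl and Bglap, beside 2.55% of the 16214 genes it tested called lower. limma voom with sample quality weights called only Alpl, beside 2.58% of all genes called lower. The osteoblast and mineralization gene Alpl showed the clearest separation, osteocalcin was lower on average but overlapped, and Phex and the typical levels of Postn were close in both groups.

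Alpl, the phosphatase that opens the way to mineral growth, was at 356, 295, 262 and 169 CPM in DMSO replicates 1 to 4, and at 49.6, 66.7, 128 and 166 CPM in SAG replicates 1 to 4. Every SAG library was below every DMSO library, and the closest values, 169 and 166 CPM, nearly touched. Among all tested genes, 3.84% had every SAG library below every DMSO library, and Alpl was 1 of 6 bone genes to do so. The means were 271 ± 78.2 CPM in DMSO and 102 ± 53.9 CPM in SAG (SD, n = 4 each), a 2.64-fold lower fitted level with SAG.

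The log2 fold change of Alpl was -1.40 (SE 0.37), with an edgeR p of 0.00260 and an adjusted p of 0.0671. The adjusted p was 0.00331 with DESeq2, 0.0182 with limma voom and 0.0432 in edgeR when only genes with at least 10 counts in every library were kept. It was 0.0191 without DMSO replicate 4, the shallow library. Thus the call of Alpl depended on the tool and on that library, while the fitted change stayed between -1.73 and -1.17 whichever library was left out. In bulk libraries, fewer cells of a type and less RNA per cell cannot be told apart, for Alpl and for every gene below.

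Hypertrophic chondrocytes, the enlarged cells at the base of the growth plate, also make alkaline phosphatase, and their markers moved with Alpl. All 6 hypertrophic markers had fold changes below 0 and 2 were called lower in edgeR. After scaling to chondrocyte markers, 4 of 6 were below 0 and none was called, where only 1 of all 15421 tested genes was called. The median of the hypertrophic markers was then -0.55, against 1.05 for all genes. Their summed level was between 362 and 1093 CPM in DMSO and between 240 and 323 CPM in SAG. Col10a1, the collagen of hypertrophic cartilage, went from 283 to 25.1 CPM (log2 fold change -3.49, adjusted p = 0.0368), and Ihh, the Hedgehog ligand of prehypertrophic cells, from 29.4 to 2.37 CPM (log2 fold change -3.63, adjusted p = 0.0238). DMSO replicate 3 held 14.1 CPM of Col10a1, below 3 of the 4 SAG libraries. limma voom called neither gene (adjusted p = 0.352 for Col10a1 and 0.0514 for Ihh) but 2 others of the list, and DESeq2 called 4. With 1 library left out at a time, Col10a1 was called in 1 of 8 fits (without DMSO replicate 3) and Ihh in 3 of 8 (without DMSO replicate 3, DMSO replicate 4 or SAG replicate 1), with adjusted p up to 0.121 and 0.0789. None of the 6 markers was at 0 in all libraries.

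The general chondrocyte list moved with Alpl as well. All 15 of its genes had fold changes below 0, with a median of -1.02, though edgeR called none (14 had an unadjusted p under 0.05), and 4 had every SAG library below every DMSO library. DESeq2 called 7 of the 15 lower, limma voom 10, and edgeR without DMSO replicate 4 called 11. When libraries were scaled to this list, Alpl stood at -0.29, and at -1.35 relative to the median of all genes. The part of the chondrocyte and hypertrophic markers in the level of Alpl was not tested.

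**Figure D1:**
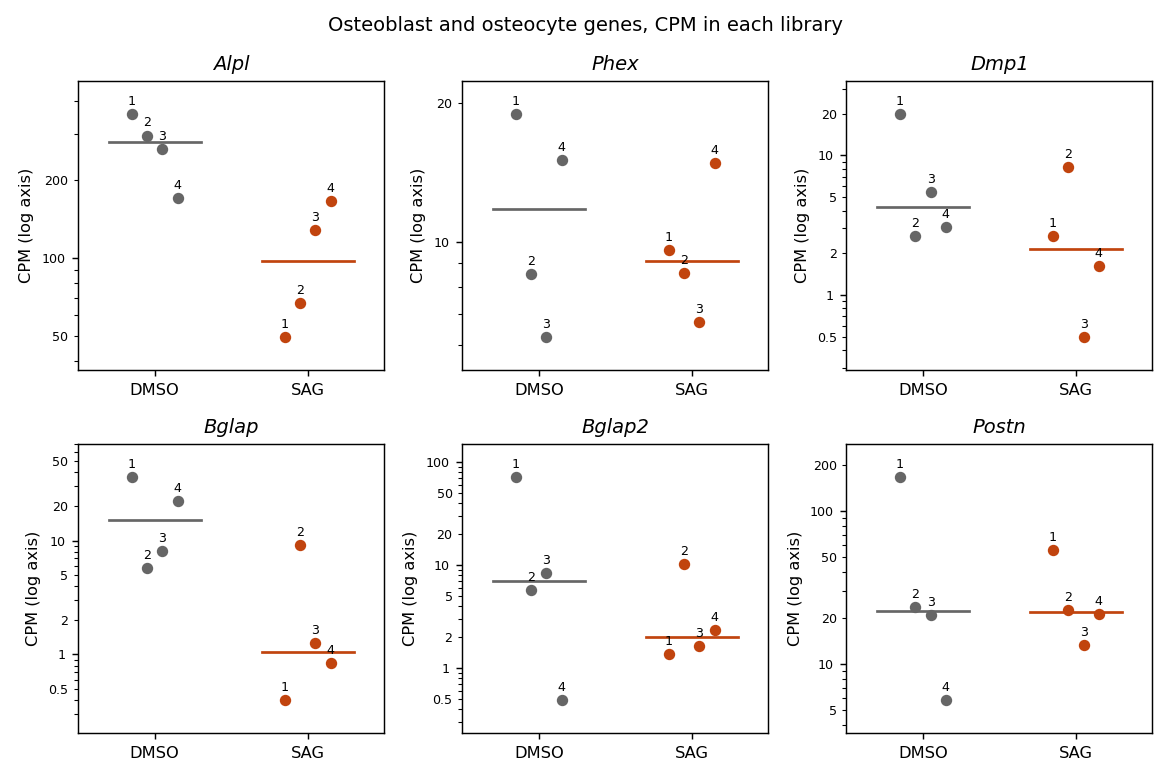
CPM (TMM-scaled, log axis) of the 6 bone genes in each of the 4 DMSO (grey) and 4 SAG (orange) libraries; each point is 1 library labelled with its replicate number, and horizontal lines are group medians. Only Alpl has every SAG library below every DMSO library, while DMSO replicate 1 is the highest library for all 6 genes.

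Osteocalcin was lower on average in SAG, with 1 SAG library that resembled DMSO. Bglap was at 36.05, 5.76, 8.12 and 22.3 CPM in DMSO replicates 1 to 4 and at 0.402, 9.15, 1.27 and 0.844 CPM in SAG replicates 1 to 4. SAG replicate 2 lay above DMSO replicates 2 and 3, and the other 3 SAG libraries lay below every DMSO library. The means were 18.1 ± 14.0 and 2.92 ± 4.17 CPM (SD, n = 4 each). The log2 fold change was -2.63 (SE 0.96, edgeR adjusted p = 0.193), and -2.67 with an adjusted p of 0.0298 in DESeq2. Without SAG replicate 2, it was -4.42 and passed the edgeR test (adjusted p = 0.0461).

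Bglap2 was at 72.1, 5.72, 8.48 and 0.494 CPM in DMSO and at 1.38, 10.3, 1.64 and 2.33 CPM in SAG. Here DMSO held both the highest and the lowest library, replicates 1 and 4, so all SAG values lay inside the DMSO range. The means were 21.7 ± 33.8 and 3.90 ± 4.26 CPM (SD, n = 4 each), with a log2 fold change of -2.47 (SE 1.17, edgeR adjusted p = 0.334). Without DMSO replicate 1 the log2 fold change was -0.32, and without SAG replicate 2 it was -3.60.

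The third copy, Bglap3, was at 0.117, 2.81, 0 and 13.5 CPM in DMSO and at 0.144, 2.35, 2.59 and 2.01 CPM in SAG. The count of 0 in DMSO replicate 3 allows a level of up to 0.0906 CPM, the worth of 3 counts. Its log2 fold change was -1.20 (SE 1.56, adjusted p = 0.789), but 0.89 without DMSO replicate 4 and 2.25 with limma voom.

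Summing the 3 copies set aside the question of which copy a read came from. The sum was 108, 14.3, 16.6 and 36.3 CPM in DMSO and 1.93, 21.8, 5.51 and 5.18 CPM in SAG. SAG replicate 2 was again above DMSO replicates 2 and 3, and the other 3 SAG libraries were below every DMSO library. The means were 43.9 ± 44.0 and 8.59 ± 8.93 CPM (SD, n = 4 each), and the summed gene had a log2 fold change of -2.35 (SE 0.80, edgeR adjusted p = 0.155).

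The split of assigned counts between the copies set DMSO replicate 4 apart. Of the Bglap and Bglap2 counts together, Bglap2 took 66.7% (95% exact Clopper-Pearson interval 65.3 to 68.0%) in DMSO replicate 1, 49.8% in replicate 2, 51.1% in replicate 3 and 2.16% (1.16 to 3.67%) in replicate 4. In SAG it took 77.4, 52.9, 56.4 and 73.4% in replicates 1 to 4, where the interval for replicate 1, on 48 Bglap2 and 14 Bglap counts, ran from 65.0 to 87.1%. The intervals treat each count as an observed read. They do not cover the error in how kallisto assigned reads that the copies share, so they are too narrow. DMSO replicate 4 had 588 counts of Bglap, 13 of Bglap2 and 355 of Bglap3, and was the only library with under 49% of these counts on Bglap2. The mean share was 42.4 ± 27.9% in DMSO and 65.0 ± 12.2% in SAG (SD, n = 4 each). The difference of 22.6 percentage points had an exact 2-sided permutation p of 0.143 over the 70 relabellings, and it was 9.17 points (exact permutation p = 0.314) without DMSO replicate 4. Without DMSO replicate 1 it was 30.7 points (exact permutation p = 0.0286, the smallest that the remaining libraries allow).

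**Figure D2:**
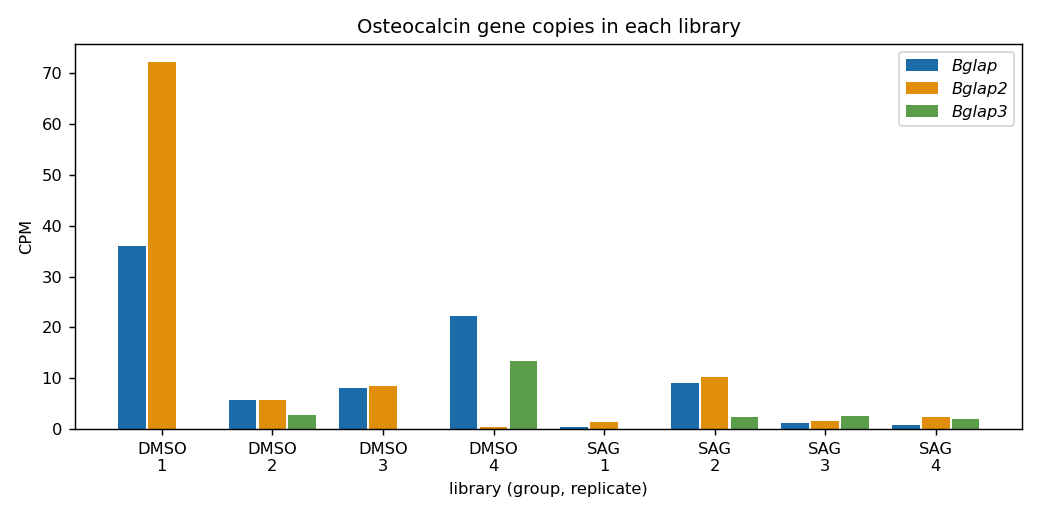
CPM of Bglap (blue), Bglap2 (yellow) and Bglap3 (green) in each library, with 1 bar per gene and no error bars because each bar is a single library. Bglap2 reaches 72.1 CPM in DMSO replicate 1 and 0.494 CPM in DMSO replicate 4, where Bglap stands at 22.3 CPM and Bglap3 at 13.5 CPM.

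Dmp1, the phosphoprotein gene of osteocytes, was low in all libraries. It was at 19.7, 2.66, 5.44 and 3.07 CPM in DMSO and at 2.64, 8.32, 0.498 and 1.60 CPM in SAG. DMSO replicate 1 was the highest and SAG replicate 2 the next, and the groups overlapped. The means were 7.72 ± 8.09 and 3.26 ± 3.48 CPM (SD, n = 4 each), with a log2 fold change of -1.24 (SE 0.92, edgeR adjusted p = 0.582). Without DMSO replicate 1 the log2 fold change was -0.19, and without SAG replicate 2 it was -2.29.

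Phex, the peptidase gene of osteoblasts and osteocytes, was at 18.9, 8.55, 6.25 and 15.1 CPM in DMSO and at 9.60, 8.58, 6.73 and 14.8 CPM in SAG. The lowest libraries of the 2 groups were within a single CPM of each other, and the SAG values lay inside the DMSO range. The means were 12.2 ± 5.81 and 9.93 ± 3.46 CPM (SD, n = 4 each), and the log2 fold change was -0.30 (SE 0.46, edgeR adjusted p = 0.833). Without DMSO replicate 1 it was -0.0014.

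Postn, the periostin gene, was at 167, 23.8, 20.95 and 5.88 CPM in DMSO and at 55.4, 22.6, 13.4 and 21.1 CPM in SAG. The medians were 22.4 CPM in DMSO and 21.9 CPM in SAG, and the higher DMSO mean of 54.3 ± 75.3 CPM (SD, n = 4), against 28.1 ± 18.6 CPM (SD, n = 4) in SAG, came from DMSO replicate 1. The log2 fold change was -0.95 (SE 0.82, edgeR adjusted p = 0.653). It was 0.74 without DMSO replicate 1 (adjusted p = 0.641), so the sign of this difference rested on 1 mouse.

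**Figure D3:**
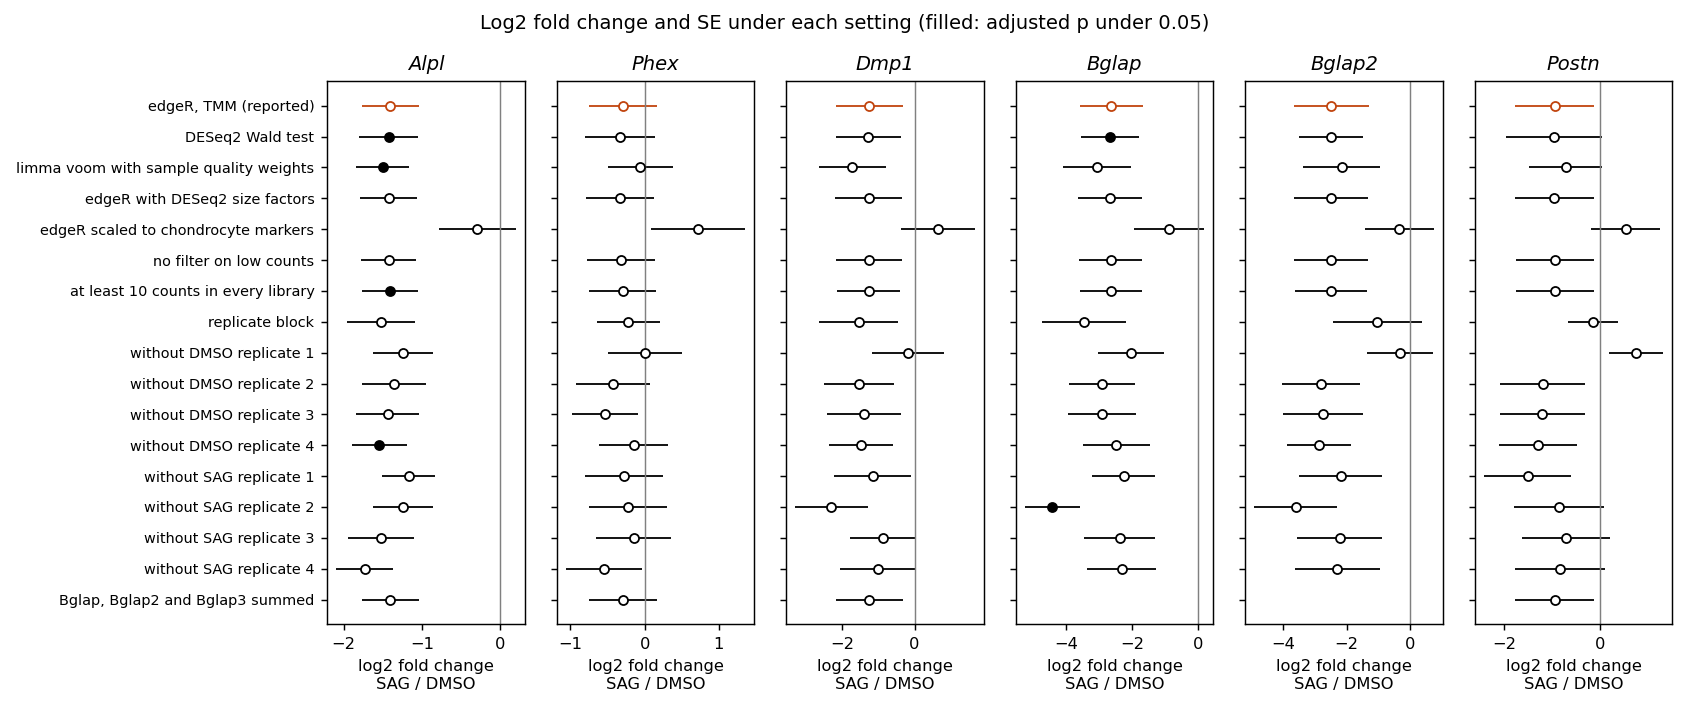
edgeR, DESeq2 or limma log2 fold change of SAG over DMSO (x axis) with its SE (bars) for each bone gene under each processing setting and with each library left out (y axis), with orange for the reported fit and filled points for an adjusted p under 0.05. Alpl stays below 0 in every setting, and scaling to chondrocyte markers puts Dmp1, Phex and Postn above 0. Leaving out DMSO replicate 1 puts Postn above 0, and Bglap and Bglap2 have no point of their own where the copies were summed.

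Levels of different genes can be compared only per length. Divided by exon length, Alpl averaged 67.1 ± 19.4 CPM per kb in DMSO and 25.4 ± 13.4 CPM per kb in SAG (SD, n = 4 each). The mean was 46.1 ± 71.7 and 8.29 ± 9.05 CPM per kb for Bglap2, and 29.2 ± 22.7 and 4.72 ± 6.75 CPM per kb for Bglap. The remaining genes were lower, with DMSO and SAG means of 6.24 and 3.23 CPM per kb for Postn, 2.79 and 1.18 for Dmp1 and 1.94 and 1.58 for Phex. Alpl was the highest of the 6 in 6 of 8 libraries, and Bglap2 was the highest in DMSO replicate 1 and SAG replicate 2. The osteocalcin copies were ranked as separate genes, and their sum per length was not ranked. The place of Alpl against osteocalcin as a whole is therefore uncertain. In each group, the library values of neighbors in this order of means overlapped.

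The same libraries stood high for the bone collagen gene, but only DMSO replicate 1 did so for the summed bone matrix list. Col1a1, the main collagen chain of bone, was at 5971 CPM in DMSO replicate 1 and 3008 CPM in SAG replicate 2, and between 535 and 1020 CPM in the other 6. Its fold change turned from -0.53 to 1.03 on the log2 scale without DMSO replicate 1. The bone matrix genes of the next list summed to 23026 CPM in DMSO replicate 1, the most of any library. In SAG replicate 2 they summed to 6384 CPM, the least of any library. Much of these sums was the single gene Sparc, at 10684 CPM in DMSO replicate 1 and 1595 CPM in SAG replicate 2. By mean log2 CPM of the list, SAG replicate 2 (6.72) was not the lowest. SAG replicate 1 (6.33) and DMSO replicate 4 (6.69) were below it. The cause of the high Col1a1 values in these 2 libraries was not tested.

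Bone genes beyond the named members are described by lists. Of 10 other bone matrix genes, none was called in edgeR (3 had an unadjusted p under 0.05). All 10 had fold changes below 0, with a median of -0.74, but only 6 of 10 did so without DMSO replicate 1. After scaling to chondrocyte markers 3 of 10 did so, with a list median of 0.38 against 1.05 for all genes. Their summed level was 8909 to 23026 CPM in DMSO and 6384 to 12525 CPM in SAG. Spp1, which encodes osteopontin, a phosphoprotein of bone and hypertrophic cartilage, averaged 316 CPM in DMSO and 123 CPM in SAG (log2 fold change -1.36, SE 0.41, adjusted p = 0.107). The adjusted p of Spp1 was 0.0122 with DESeq2, 0.0347 with limma voom and 0.0263 in edgeR without DMSO replicate 4, and no other gene of this list was called in these fits. Sparc, which encodes the collagen-binding protein osteonectin, averaged 8554 and 4636 CPM (log2 fold change -0.88, adjusted p = 0.306).

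Of 9 transcription factors of the osteoblast lineage, edgeR called none (1 had an unadjusted p under 0.05), and DESeq2 and limma voom each called 1, Dlx5, lower. Their median log2 fold change was -0.33, and 0.87 after scaling to chondrocyte markers, where the median of all genes was 1.05. Runx2 was at 120 and 97.1 CPM (log2 fold change -0.30, adjusted p = 0.451) and Atf4, which osteoblasts need for matrix synthesis, at 267 and 293 CPM (log2 fold change 0.13, adjusted p = 0.807). Sp7, which encodes osterix, the factor downstream of RUNX2, averaged 24.6 CPM in DMSO and 8.01 CPM in SAG (log2 fold change -1.62, SE 1.08, adjusted p = 0.529). Its 4 DMSO libraries ran from 0 to 43.1 CPM, with the 0 in DMSO replicate 4 (which allows up to 0.114 CPM), and its adjusted p was 0.0111 without that library. Dlx5, a homeobox factor gene of osteoblasts, averaged 36.7 and 14.2 CPM (log2 fold change -1.37, SE 0.46, edgeR adjusted p = 0.155). The adjusted p of Dlx5 was 0.0377 with DESeq2, 0.0215 with limma voom and 0.0368 in edgeR without DMSO replicate 4.

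Of 9 tested genes of mineralization and of vitamin K-dependent carboxylation, edgeR called none (4 had an unadjusted p under 0.05). Of these 4, Phospho1 was higher with SAG and the others lower. Phospho1 averaged 54.5 CPM in DMSO and 84.3 CPM in SAG (log2 fold change 0.63, SE 0.26, edgeR adjusted p = 0.248). DESeq2 called 1 lower and limma voom 2. In edgeR 7 of the 9 had fold changes below 0, or 1 of 9 after scaling to chondrocyte markers. Under that scaling the list median was 0.32, against 1.05 for all genes. Ggcx, the carboxylase that modifies osteocalcin, averaged 25.5 CPM in DMSO and 11.7 CPM in SAG, with every SAG library below every DMSO library (log2 fold change -1.13, SE 0.34, edgeR adjusted p = 0.110). The adjusted p of Ggcx was 0.0168 with DESeq2 and 0.0321 with limma voom. Smpd3, a sphingomyelinase needed for bone mineral, averaged 314 and 181 CPM (log2 fold change -0.79, adjusted p = 0.252). Mgp, an inhibitor of cartilage mineral, averaged 1464 and 916 CPM (log2 fold change -0.68, adjusted p = 0.508), and Fam20c, the kinase of secreted matrix proteins, 83.4 and 46.4 CPM (log2 fold change -0.84, adjusted p = 0.385).

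Of 7 other tested genes associated with osteocytes, 1 rose and none fell. The gene that rose was Cd44, a hyaluronan receptor that leukocytes also carry. Cd44 was between 262 and 344 CPM in DMSO and between 512 and 826 CPM in SAG (log2 fold change 1.18, SE 0.19, edgeR adjusted p = 0.0116), and it was called in 5 of the 8 fits with 1 library left out, but not without DMSO replicate 2, DMSO replicate 3 or SAG replicate 4 (adjusted p up to 0.0562). Fbln7 averaged 198 and 114 CPM (log2 fold change -0.79, adjusted p = 0.399) and Ptprz1 3.96 and 1.43 CPM (log2 fold change -1.47, adjusted p = 0.467).

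Markers of blood cells moved with the treatment as well. Of 12 neutrophil genes, 9 rose in edgeR, or 3 without DMSO replicate 3 and 6 without DMSO replicate 2 or SAG replicate 4. The list summed to 4839 to 14471 CPM in DMSO and 27654 to 43844 CPM in SAG. S100a8, a calcium-binding protein of neutrophils, averaged 1098 and 5231 CPM (log2 fold change 2.25, adjusted p = 0.0102). Of 8 tested B-lineage genes, 3 fell in edgeR and 2 in limma voom, and DESeq2 called 6 of the 9 it tested. Without DMSO replicate 3 or without SAG replicate 2, 3 or 4, edgeR called 1, and it called 2 without DMSO replicate 2 or SAG replicate 1. The list summed to 80.0 to 351 CPM in DMSO and 17.5 to 41.7 CPM in SAG. These lists had no gene at 0 in every library. CPM are shares of a library, and the part of these cells in the levels of Alpl, osteocalcin and Cd44 was not tested.

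Of 10 genes of periosteum and fibrous tissue, a tissue known for periostin, 1 fell. That gene was Fn1, the fibronectin gene, which chondrocytes also express, at 19164 CPM in DMSO and 7612 CPM in SAG (log2 fold change -1.33, SE 0.31, adjusted p = 0.0445). It was called in 1 of 8 fits with 1 library left out, the fit without DMSO replicate 4. The list's median log2 fold change was -0.22, and 0.62 without DMSO replicate 1, the library with the most Postn. Col3a1, a fibrillar collagen gene, averaged 824 and 507 CPM (log2 fold change -0.70, adjusted p = 0.728), and Aspn 19.1 and 7.93 CPM (log2 fold change -1.27, adjusted p = 0.731). Without DMSO replicate 1, at 2488 CPM of Col3a1 and 63.3 CPM of Aspn, these turned to 0.92 and 0.86.

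Bone-resorbing cells and vessels border on bone-forming cells, and of 5 tested osteoclast genes 1 rose. This was Mmp9, a protease gene that neutrophils also express (log2 fold change 2.24, adjusted p = 0.0102). Acp5, the acid phosphatase gene that defines osteoclasts, averaged 21.9 CPM in DMSO and 4.97 CPM in SAG (log2 fold change -2.14, SE 0.75, adjusted p = 0.173). DMSO replicate 4 held 64.9 CPM of Acp5 and the other DMSO libraries 5.89 to 10.1 CPM, and without it the log2 fold change was -0.57. Ctsk, a protease gene of osteoclasts, averaged 34.9 and 28.1 CPM (log2 fold change -0.31, adjusted p = 0.806). None of 5 endothelial, 6 erythroid or 6 marrow stroma genes tested was called by edgeR, DESeq2 or limma voom, and none of these had an unadjusted edgeR p under 0.05.

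**Figure D4:**
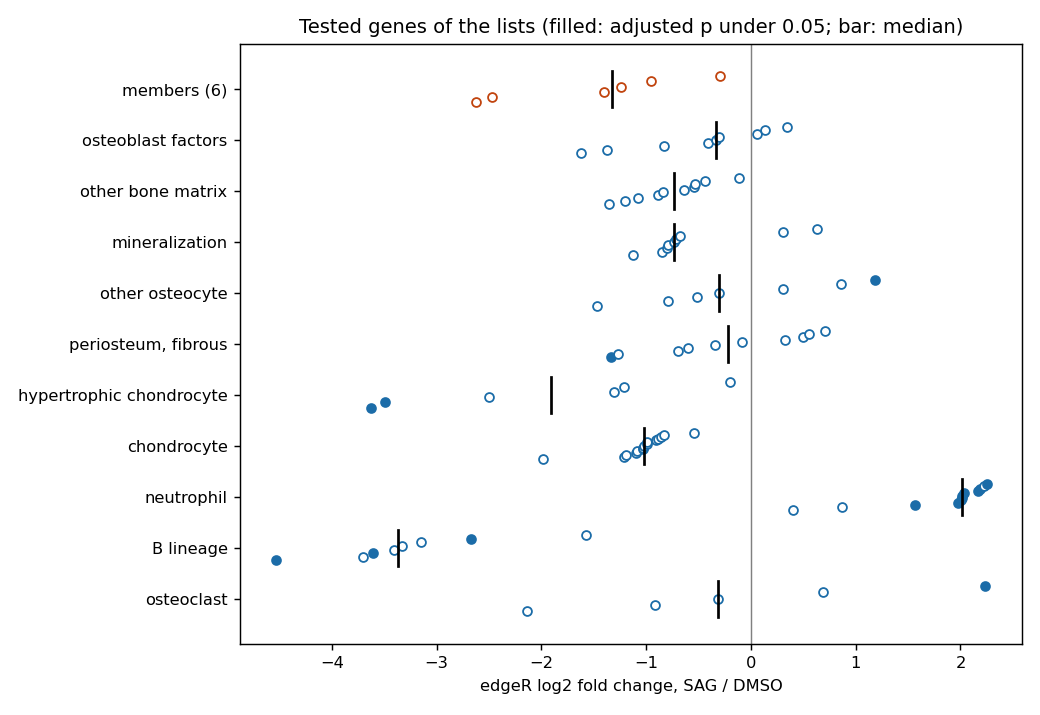
edgeR log2 fold change of SAG over DMSO (x axis) for each tested gene of the lists (y axis), with 1 point per gene, a vertical bar at the list's median and filled points for an adjusted p under 0.05. The 6 bone genes (orange) are all below 0 and none is filled, and Dmp1, Phex and Postn are above 0 when libraries are scaled to chondrocyte markers. The neutrophil genes are above 0 and the hypertrophic and chondrocyte genes below 0. Under that scaling 2 of 6 hypertrophic genes turn above 0. The chondrocyte genes set that scaling, which ties their average near 0, so their split around 0 under it (9 of 15 above) is not a separate result.

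Among 13887 other genes with a mean count of at least 50, those whose log2 CPM followed each bone gene most closely over the 8 libraries were listed as a description. They share library depth and composition with it, and a high r is fixed by the search. Alpl was followed by Matn1, which encodes the cartilage matrix protein matrilin 1, with Pearson r = 0.979 and the same rank order in all 8 libraries, and by Dap (0.978) and the osteopontin gene Spp1 (0.978). Postn was followed by Fstl1, a secreted glycoprotein gene of mesenchymal cells (0.975), Ssc5d (0.965) and Dkk2, a Wnt antagonist gene (0.958). Bglap was followed by Nsmce3 (0.968), Zfp68 (0.954) and Ppp1r16a (0.935), and Bglap2 by Sgsm2 (0.971), Oaz2 (0.959) and Isg20l2 (0.945). Dmp1 was followed by Kat14 (0.913), Taf6 (0.906) and Top1mt (0.900), and Phex by Olfr920 (0.962), Il13ra2 (0.926) and Fam185a (0.913). Only Alpl, with Spp1, was followed most closely by a gene of the bone lists used here.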

How the data were processed

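RNA of sorted mCherry+CD73+ cells was sequenced from 1 library per mouse (4 DMSO, 4 SAG, grouped by the labels' treatment), prepared with a stranded low-input total RNA kit. The deposited table holds whole-number counts per gene. Per the labels, the authors used kallisto, DESeq2 and GRCm38; versions, rounding, annotation and the strand setting of the counting are not given in the sources used here. Positions came from GENCODE M21, whose symbols matched all 16536 genes. edgeR 4.0.16 in R 4.3.3 was used for the main test: TMM, filterByExpr, a robust quasi-likelihood fit and Benjamini-Hochberg adjustment over 15421 genes at 0.05. Alternatives were DESeq2 1.42.0, limma voom 3.58.1, other scalings and filters, the labels' replicate numbers as a block, summed osteocalcin copies and each library left out. The code was tested on simulated data. Levels are CPM with TMM-scaled library sizes; correlations used log2 CPM with a prior count of 2. Intervals of shares are exact at 95% only for counts taken as observed reads.

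The 8 genes and all lists were chosen with earlier results of these data known. The text names all members, Bglap3, and of each list the called genes and then the most abundant and most changed ones up to 4, of which a selection is given, as well as 3 genes most like each member. Col1a1 values by library and the values of Phospho1 were chosen after they were seen. In the 12 pairs of libraries of 1 group, Spearman rho was 0.846 to 0.956 and counts differed beyond sampling noise (chi-square per degree of freedom at least 106), so each library was counted as 1 replicate. The labels give 1 mouse per library. The edgeR p-values set a group difference against the spread between these mice, estimated in part from all genes. Genes sharing reads with a near copy, the osteocalcin genes here, are uncertain. Mepe and Sost were not analysed here.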

Additional observations from a re-analysis of the deposited data

Results flagged for a closer look

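Dixon's ratio was used to find a highest or lowest library far from the others within a group of 4 libraries. It flagged 5 of 16 pairs of measure and group. For normally distributed values about 1 in 20, or 0.8 of these pairs, would be flagged. The ratio was taken on unlogged values, which need not be normally distributed, so the 5 flags cannot be read as an excess over chance. The measures share libraries and are not independent. Bglap was at 9.15 CPM in SAG replicate 2, with the next SAG library at 1.27 CPM. Bglap2 was at 10.3 CPM in the same library, with the next at 2.33 CPM. In DMSO replicate 1, Bglap2 was at 72.1 CPM against 8.48 CPM in the next DMSO library. Dmp1 was at 19.7 CPM there against 5.44 CPM, and Postn at 167 CPM against 23.8 CPM. The cause of these values was not tested.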

How the results depend on the processing

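Of 94 recomputed fold changes of single genes, 84 kept their direction and their side of the adjusted p threshold, 6 came past it and 4 changed sign. The number of the 6 bone genes called rose from 0 to 2 with DESeq2 (Alpl, Bglap), to 1 with limma voom (Alpl) and to 1 when at least 10 counts were required in every library (Alpl), and ranged from 0 to 1 with 1 library left out. Scaling to chondrocyte markers moved the median of all genes to 1.05 and left 1 gene called higher and 0 lower. The shift common to all genes, 1.14, reversed Dmp1 (0.65), Phex (0.72) and Postn (0.53), which stayed below the median of all genes (-0.40, -0.33 and -0.53 relative to it). Postn was also reversed, to 0.74, without DMSO replicate 1, its highest library, and ranged from -1.51 to 0.74 with 1 library left out. The difference in the Bglap2 share ranged from 9.17 to 30.7 percentage points with 1 library left out.

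The replicate numbers are shared by both groups, and whether same-numbered mice were paired is not known. Correlations of same-numbered deviations were 0.120, 0.0219, 0.0195 and 0.0102. Those of differently numbered libraries ran from -0.117 to 0.0840. With 4 libraries per group, these values cannot decide whether mice were paired. With the replicate block, 0 of the 6 genes were called, Alpl was at -1.52 (adjusted p = 0.136) and Bglap at -3.46 (adjusted p = 0.241), and all genes gave 334 higher and 18 lower calls against 404 and 41 without it. All-gene calls were 812 and 413 with DESeq2, 995 and 398 with limma voom, 558 and 87 with the stricter filter, and from 80 to 1017 higher and 4 to 343 lower with 1 library left out, the most without DMSO replicate 4.

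With 4 mice per group, bone genes that varied widely within a group left wide errors. The widest range, 146-fold, was that of Bglap2 in DMSO, where the summed osteocalcin copies ran from 14.3 to 108 CPM. Low counts, such as 13 of Bglap2 in DMSO replicate 4 and 14 of Bglap in SAG replicate 1, limit single values. Bglap and Bglap2 share most short reads.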
